A study of Mus musculus with 4 samples.

Results

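Nuclear receptors are transcription factors that bind DNA through zinc fingers and carry a ligand-binding domain that exchanges corepressors for coactivators. Some members answer to steroids, thyroid hormone, retinoic acid or lipids, while the orphan members act without a known ligand or with one that was found late. In the developing peripheral nervous system retinoid, thyroid hormone, glucocorticoid and COUP-TF signalling are known to take part in the maturation of neurons and glia.

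The gene set comprised 43 nuclear receptor genes of the 41388 genes in the deposited files. Members were chosen by gene symbol from the nuclear receptor nomenclature, with the Nr4a family left out. The rule uses no measured value, but the choice was made with earlier results of these data known. Each of the 43 symbols matched 1 gene ID.

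RNA was sequenced from Ret-EGFP cells that were sorted from dorsal root ganglia of the spinal levels T11-S1 of C57BL/6 mice. Ret is the receptor of the GDNF family ligands, and EGFP marks the cells in which its locus is active. The genotype label reads Tg(Ret-EGFP)SJ/, a transgene name, whereas the design text gives heterozygotes with EGFP inserted at the endogenous locus. All 4 libraries share this reporter, the stage label P2 (postnatal day 2) and the sort. Each is labelled as the pooled ganglia of 1 animal. The pool size and treatment labels of male B and male C (20 ganglia each) say embryo, and these libraries are called the embryo pair. For male A (20 ganglia) and female A (40 ganglia) the pool size labels say P2 mouse, and these are called the P2-mouse pair. Whether the difference between these labels is one of age, preparation or wording is not stated in the labels, so the pool description and anything that goes with it cannot be told apart. The only female library is in the P2-mouse pair, so sex was examined as a separate term. Its pool label gives 40 ganglia from 1 mouse, against 20 in each male pool of the same spinal levels, and does not say why.

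Libraries held between 17388493 and 28066448 gene counts, and 3 counts corresponded to between 0.107 and 0.173 CPM (counts scaled to the library's total). The Pearson correlation of log2 CPM over 13490 genes was 0.986 within the embryo pair, 0.991 within the P2-mouse pair and 0.933 to 0.943 across pairs. Ret was measured at 271.6, 240.1, 232.2 and 233.2 CPM in male B, male C, male A and female A, and it did not pass the test between the pairs (log2 fold change -0.25, edgeR adjusted p = 0.066). The 12 sensory neuron markers, led by Stmn2 and Tubb3, summed to 20850 to 22000 CPM in the embryo pair and 14130 to 14780 CPM in the P2-mouse pair, with 9 of 12 lower and 1 higher. Myelinating Schwann cell markers, led by Mbp, summed to 576 to 709.6 CPM and to 2422 to 3943 CPM, with 11 of 12 higher. Fibroblast markers, led by Col1a2 and Col3a1, summed to 342.3 to 353.4 CPM and to 1412 to 1543 CPM, with 6 of 9 tested higher and 1 lower. Satellite glia markers, led by Ednrb and Sostdc1, summed to 598.4 to 707.7 CPM and to 1054 to 1186 CPM, with 5 of 8 higher and 2 lower. Endothelial and mural markers, led by Rgs5 and Pdgfrb, summed to 94.65 to 110.5 CPM, with 5 of 9 tested higher and 1 lower. The higher ones, named after their values were seen, were Cdh5, Kdr, Tek, Emcn and Cspg4, each at or below 4.17 CPM. Macrophage markers, led by C1qb and Mrc1, summed to 3.485 to 9.489 CPM, and none of the 4 tested passed. No marker was at 0 in every library. The part of these cell markers in the receptor values below was not tested, and in bulk RNA fewer cells of a type and less RNA per cell cannot be told apart.

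Levels are given first, as reads per kilobase of exon scaled to the library's size (RPKM), the scale on which different genes can be set side by side. Values in each sentence run in the order male B, male C, male A and female A. Thra, the thyroid hormone receptor alpha gene, had the highest mean over the 4 libraries, at 21.3, 23.2, 16.9 and 21.6 RPKM. Nr2f2, which encodes COUP-TFII, followed at 10.6, 9.85, 20.4 and 18 RPKM. It lay below Thra in the embryo pair and level with it in the P2-mouse pair, where male A had more Nr2f2 than Thra. Nr1h2, the liver X receptor beta gene, averaged 8.198 RPKM in the embryo pair and 5.44 RPKM in the P2-mouse pair. Rxrg, the gene of the retinoid X receptor gamma that pairs with many other receptors, averaged 6.09 and 6.49 RPKM, below Nr1h2 in the embryo mean and above it in both P2-mouse libraries. Next came Nr2c2 (2.64 and 5.88 RPKM), Nr2c1 (3.56 and 3.94), Nr3c1 (2.03 and 3.95), Nr2f1 (1.11 and 3.19) and Nr1d1 (2.58 and 1.48), as means of the embryo and the P2-mouse pair. Their order differed between the pairs, with Nr2c1 above Nr2c2 and Nr1d1 above Nr2f1 in the embryo means and the reverse in the P2-mouse means.

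In all, 19 of the 43 genes had at least 1 CPM in every library, 19 stayed below 1 CPM in every library and 5 were mixed. At 5 CPM the first count was 10 genes, and at 1 RPKM it was 11. Nr0b1, Nr1i2 and Nr2e3 had no count in any library, and 5 members had at most 3 counts in every library, which here means at or under the detection floor. Summed over the members, the level was 311.8 and 318.9 CPM in the embryo pair and 401.3 and 404.2 CPM in the P2-mouse pair.

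**Figure D1:**
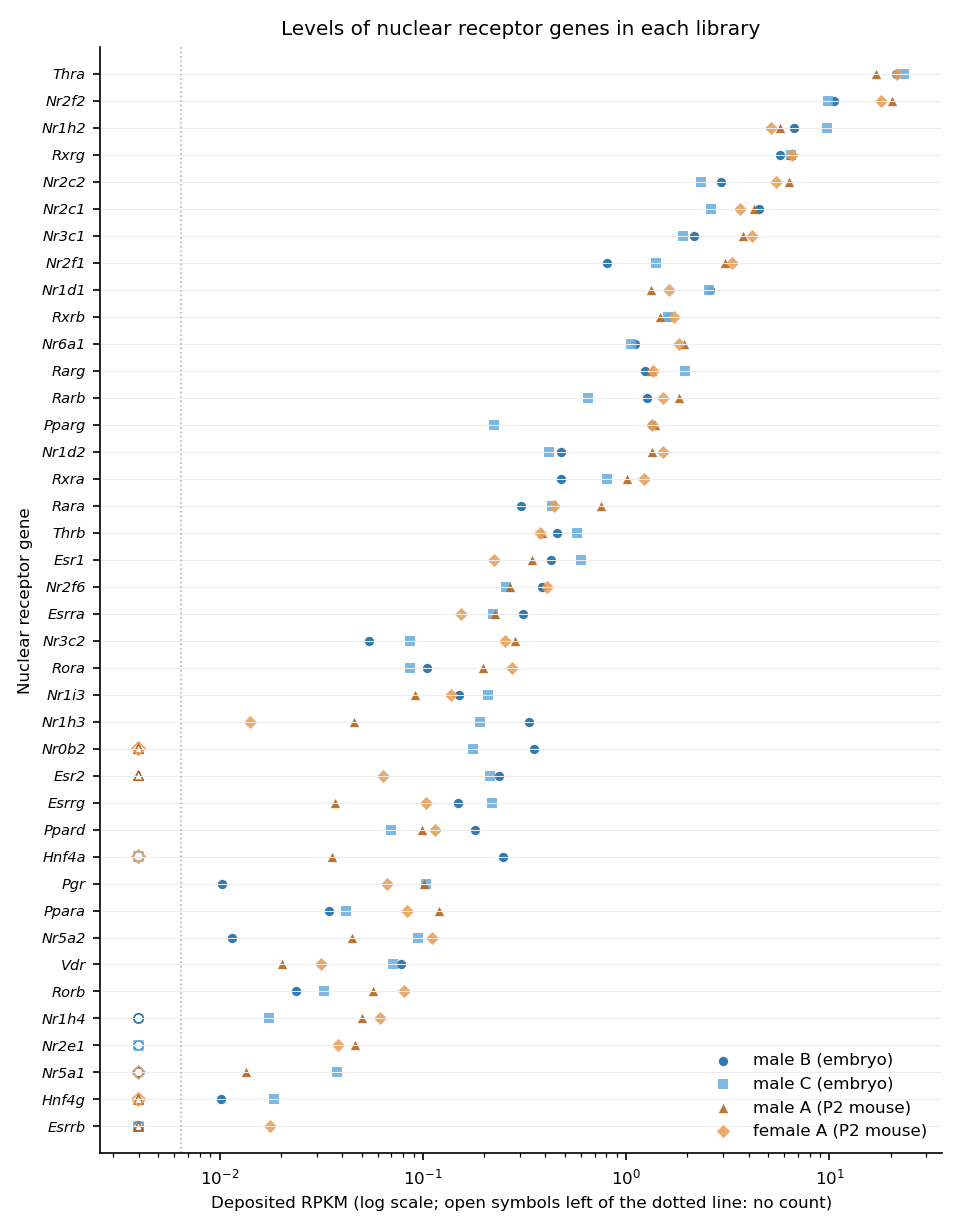
Deposited RPKM (log axis) of each member with a count, 1 symbol a library, the embryo pair in blues and the P2-mouse pair in browns, with open symbols left of the dotted line for no count. Thra and Nr2f2 have the highest means, with 21.3 and 10.6 RPKM in male B, and the 3 members with no count in any library are not drawn.

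The comparison between the pairs asks which members differed between libraries of differing pool labels. A filter on low counts kept 30 of the 43 members, and of these the edgeR quasi-likelihood test called 8 higher in the P2-mouse pair and 5 lower, with 17 not passing an adjusted p of 0.05. Among all 15568 genes tested, 42.3% passed in either direction, 22.3% higher and 20.0% lower. The members' share of 43.3% was near that background, so the number of calls is not a result about nuclear receptors. These shares over all genes are also the measure for the pathway lists below. The members' median log2 fold change was 0.0076, against 0.018 over all tested genes. Lack of overlap between the pairs is reported below only as a description of 2 libraries against 2. The share of all genes without overlap was not computed, so no receptor's lack of overlap is read as support for a difference. The RPKM of the pairs also did not overlap for Thrb, Rara, Rarb, Rxra, Pparg, Rorb, Esrrg and Nr1i3, which did not pass. With only 2 libraries a group, each labelled as from 1 animal, p-values measure the spread between these libraries.

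Filtering on low counts also fixed which members could be called. Nr0b1, Nr0b2, Nr1h4, Nr1i2, Nr2e1, Nr2e3, Nr5a1, Nr5a2, Esrrb, Ppara, Vdr, Hnf4a and Hnf4g were not tested.

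**Figure D2:**
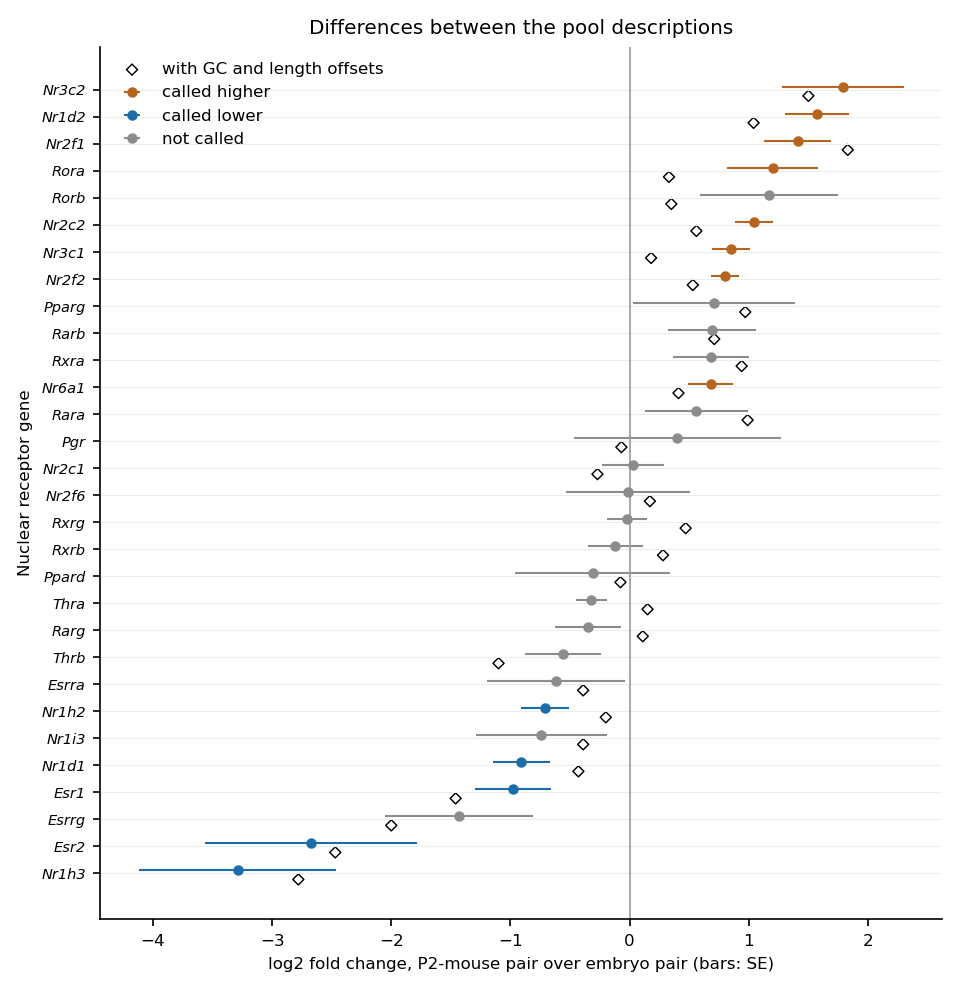
Log2 fold change of the 30 tested members, P2-mouse pair over embryo pair, as points with bars of 1 SE coloured by call, and as open diamonds the value with GC and length offsets. Nr3c2 and Nr1d2 stand highest at 1.79 and 1.57, and Nr1h3 and Esr2 lowest at -3.29 and -2.67.

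The COUP transcription factors I and II were higher in the P2-mouse pair. Nr2f2, whose protein directs cell fate and vessel identity, occupies chr7:70351946-70366735 on the minus strand of GRCm38. Its RPKM in the embryo pair (10.6 and 9.85) did not overlap that in the P2-mouse pair (20.4 and 18), and the log2 fold change was 0.80 (SE 0.12, edgeR adjusted p = 0.00156). Nr2f1, COUP-TFI, at chr13:78188973-78199757 on the minus strand, was measured at 0.808, 1.4, 3.06 and 3.32 RPKM, again without overlap between pairs. It rose with a log2 fold change of 1.41 (SE 0.28, edgeR adjusted p = 0.00519), and with sex as a term, a fit with 1 residual degree of freedom, the log2 fold change was 1.36 (edgeR adjusted p = 0.0579). Nr2f6, a related orphan receptor, stood at 0.385, 0.256, 0.270 and 0.406 RPKM, with overlapping pairs and a log2 fold change of -0.015 (edgeR adjusted p = 0.984). Ocel1, on the other strand, covers 54.4% of the exon bases of Nr2f6, and without a stated strand setting the reads of the pair cannot be told apart.

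COUP-TF summed over its 3 genes was 11.8 and 11.5 RPKM in the embryo pair and 23.8 and 21.7 RPKM in the P2-mouse pair. Nr2f2 supplied 82.8% to 89.9% of it in every library.

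Of the testicular receptors TR2 and TR4, orphan receptors that act as a pair on shared DNA elements, one passed the test. Nr2c2 (TR4, chr6:92091390-92173057, plus strand) was measured at 2.94, 2.33, 6.31 and 5.45 RPKM. Its pairs did not overlap, and it rose with a log2 fold change of 1.04 (SE 0.16, edgeR adjusted p = 0.00173). Nr2c1 (TR2) stood at 4.50, 2.62, 4.23 and 3.64 RPKM, with overlapping pairs and a log2 fold change of 0.03 (edgeR adjusted p = 0.935). In the embryo pair Nr2c2 made up 39.5% and 47.1% of the 2 genes' RPKM, and in the P2-mouse pair 59.9% and 60.0%. Mrps25, a mitochondrial ribosome gene, lies over 38.6% of the Nr2c2 exon bases on the other strand. It was lower in the P2-mouse pair, at 85.8, 78.4, 53.5 and 44.9 CPM (log2 fold change -0.85, edgeR adjusted p = 0.00176), opposite to Nr2c2.

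The sequences 250 bases before the annotated start are shown for the COUP-TF and REV-ERB gene pairs, since in each of them members were measured well enough to be compared between the libraries. They come from RefSeq on GRCm38.p6, run 5′ to 3′ on the gene's strand, and capitals mark the nuclear receptor hexamer AGGTCA, sought on both strands. The intervals are chr7:70366747-70366996 for Nr2f2, chr13:78198874-78199123 for Nr2f1 (one of its annotated starts), chr11:98775378-98775627 for Nr1d1 and chr14:18239107-18239356 for Nr1d2, all on the minus strand. The starts are those of RefSeq. In the annotation used for counting, the Nr2f1 window lies inside the span of the gene, and the Nr1d2 window overlaps the first bases of its gene.
Nr2f2: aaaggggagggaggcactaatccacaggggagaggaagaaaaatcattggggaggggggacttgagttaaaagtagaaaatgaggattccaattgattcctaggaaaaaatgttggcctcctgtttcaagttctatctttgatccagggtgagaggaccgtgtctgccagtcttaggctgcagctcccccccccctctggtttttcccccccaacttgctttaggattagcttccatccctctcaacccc
Nr2f1: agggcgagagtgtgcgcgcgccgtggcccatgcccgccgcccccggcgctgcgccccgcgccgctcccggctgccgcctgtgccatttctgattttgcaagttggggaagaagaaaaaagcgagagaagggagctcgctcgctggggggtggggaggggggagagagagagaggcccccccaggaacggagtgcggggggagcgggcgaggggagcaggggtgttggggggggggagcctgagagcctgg
Nr1d1: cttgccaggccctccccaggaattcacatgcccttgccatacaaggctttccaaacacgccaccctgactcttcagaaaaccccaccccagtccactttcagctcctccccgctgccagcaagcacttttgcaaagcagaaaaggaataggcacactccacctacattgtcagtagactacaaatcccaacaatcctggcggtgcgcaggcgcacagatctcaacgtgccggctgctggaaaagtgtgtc
Nr1d2: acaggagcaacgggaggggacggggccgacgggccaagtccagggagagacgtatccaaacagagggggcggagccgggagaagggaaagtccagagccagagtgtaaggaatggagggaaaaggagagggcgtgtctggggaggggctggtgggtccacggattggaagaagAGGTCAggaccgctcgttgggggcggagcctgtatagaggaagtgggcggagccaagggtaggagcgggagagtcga
Of these windows the one of Nr1d2 held AGGTCA, at position -77 from the start. A motif match is a description of letters, and no match says only that these letters are not in the window. Over all 32851 promoters of this length 14% held AGGTCA, and of the 60 promoters of 39 members 11 did (18.3%). The E-box CACGTG, the element of the clock factors, was in 6.02% of all promoters and in 5 of the 60 (8.33%), those of Esr2, Nr0b2, Nr1i3, Rara and Thrb.

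The circadian REV-ERB repressors moved in opposite directions. Nr1d1 (REV-ERB alpha, chr11:98767932-98775333, minus strand) stood at 2.60, 2.56, 1.33 and 1.63 RPKM, with the embryo pair above the P2-mouse pair. It fell with a log2 fold change of -0.91 (SE 0.24, edgeR adjusted p = 0.017). Nr1d2 (REV-ERB beta, chr14:18204054-18239127, minus strand) stood at 0.476, 0.418, 1.35 and 1.52 RPKM, with the P2-mouse pair above. It rose with a log2 fold change of 1.57 (SE 0.27, edgeR adjusted p = 0.00272) and kept that call in each of the 13 alternatives. Nr1d1 lost its call without male A (-0.78), without female A (-1.05) and with sex as a term (-1.06, edgeR adjusted p = 0.0702), at log2 fold changes near the full one. With offsets for GC content and length it was -0.43 (edgeR adjusted p = 0.186). Their summed level was 3.07, 2.98, 2.67 and 3.15 RPKM, while the share of Nr1d1 was 84.5% and 86.0% in the embryo pair and 49.7% and 51.8% in the P2-mouse pair. Nr1d2 shares 5.13% of its 50-base words with another annotated gene and Nr2c2 5.39%, so some of their reads may have been split. Nr1d1 and Thra overlap tail to tail on opposite strands, over 8.55% of the Nr1d1 exon bases.

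RORs, which activate through the elements that REV-ERBs repress, were low. Rora was measured at 0.105, 0.0860, 0.198 and 0.275 RPKM without overlap, and rose with a log2 fold change of 1.2 (SE 0.38, edgeR adjusted p = 0.038). That call ended without male C, male A or female A in turn, with DESeq2 and with sex as a term (0.95, edgeR adjusted p = 0.207), and with the offsets its log2 fold change was 0.33 (edgeR adjusted p = 0.543). Rorb had 6, 9, 11 and 25 counts and did not pass (log2 fold change 1.17, edgeR adjusted p = 0.147). Of 14 tested clock genes, 3 rose and 1 fell (28.6% called, against 42.3% of all genes), with a median log2 fold change of 0.31. Clock itself rose from 10.4 and 12.8 CPM to 36.2 and 47.7 CPM (log2 fold change 1.74, edgeR adjusted p = 0.000402), and Arntl, its partner BMAL1, from 0.485 and 0.803 to 1.90 and 2.78 CPM (1.74, edgeR adjusted p = 0.0216). The Clock value was 0.87 with the offsets (edgeR adjusted p = 0.0138), and the Arntl call was lost without male B, male A or female A in turn and with sex as a term (edgeR adjusted p = 0.143). Bhlhe40, a clock repressor, rose from 7.24 and 8.59 to 28.9 and 27.3 CPM, and its relative Bhlhe41 fell from 252.2 and 278.3 to 143.0 and 134.9 CPM.

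**Figure D3:**
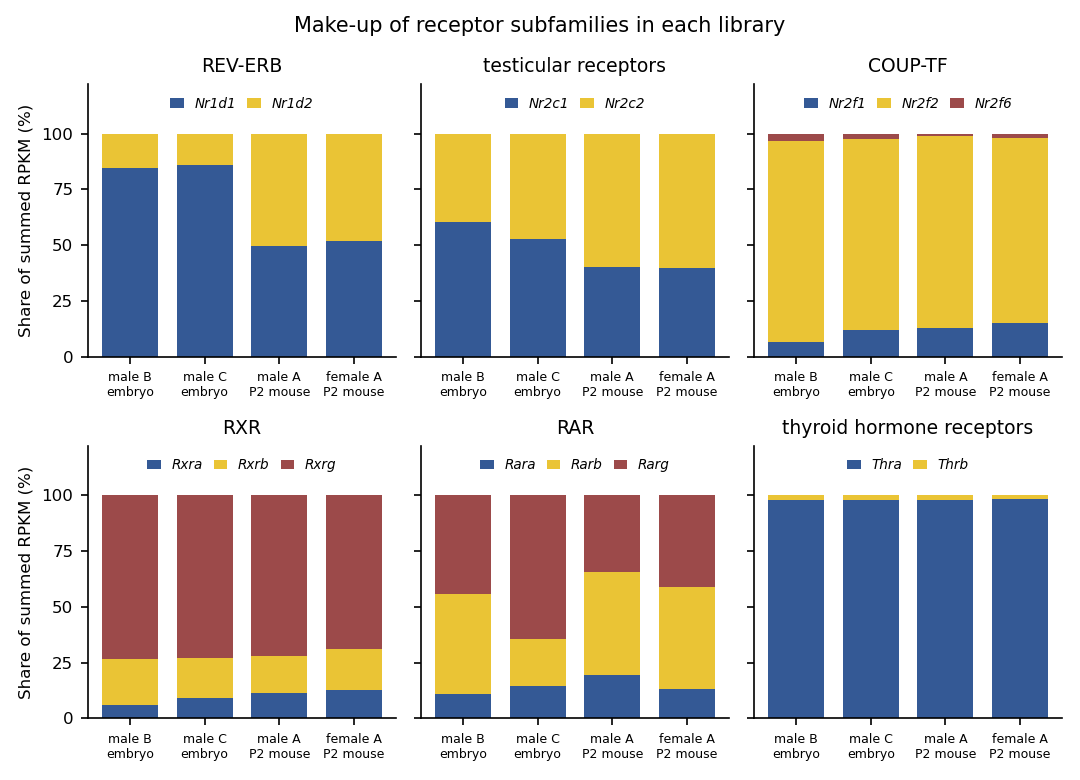
Share of the summed RPKM (percent) supplied by each gene in 6 receptor subfamilies, as stacked bars for each of the 4 libraries. Nr1d1 supplies 84.5% and 86.0% of REV-ERB in the embryo pair and 49.7% and 51.8% in the P2-mouse pair, while Thra supplies at least 97.6% of the thyroid hormone receptor level in every library.

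Corticoid receptors were higher in the P2-mouse pair. Nr3c1, the glucocorticoid receptor gene, was measured at 2.16, 1.90, 3.74 and 4.17 RPKM without overlap, and rose with a log2 fold change of 0.85 (SE 0.16, edgeR adjusted p = 0.00375). Once GC and length offsets were added, the log2 fold change was 0.18 (edgeR adjusted p = 0.394), and with sex as a term it was 0.78 (edgeR adjusted p = 0.0531). Nr3c2, the mineralocorticoid receptor gene, stood at 0.0545, 0.0868, 0.284 and 0.253 RPKM and had a log2 fold change of 1.79 (SE 0.51, edgeR adjusted p = 0.0254). Its call ended without male B, male A or female A in turn, with DESeq2, with sex as a term (1.89, edgeR adjusted p = 0.0943) and with the offsets (1.5, edgeR adjusted p = 0.0619). Of 11 tested glucocorticoid response and activation genes, 5 rose and 2 fell (63.6% called, against 42.3% of all genes), with a median log2 fold change of 0.47. Sgk1, a kinase induced by corticoids, rose from 20.9 and 16.9 CPM to 174.1 and 101.0 CPM (log2 fold change 2.75, edgeR adjusted p = 0.000268). Klf9 rose from 18.88 and 17.95 to 49.1 and 44.1 CPM, Hsp90aa1, a chaperone of the receptor, from 61.9 and 59.7 to 132.8 and 134.0 CPM, and Dusp1 from 13.9 and 10.4 to 23.0 and 22.3 CPM. Tsc22d3, the classical GILZ target, went the other way, from 335.4 and 304.6 to 232.8 and 223.7 CPM, as did the co-chaperone gene Ptges3. The fifth riser, Zbtb16, named after its values were seen, went from 0.0441 and 0.120 to 0.575 and 0.748 CPM. Its call was lost without male B, without male A, with DESeq2 and with sex as a term, and that of Dusp1 without male A, without female A and with sex as a term.

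Thyroid hormone receptors were led by Thra, whose values overlapped between pairs and did not pass (log2 fold change -0.32, SE 0.13, edgeR adjusted p = 0.0868). It was called lower under upper-quartile scaling (edgeR adjusted p = 0.0436) and with no filter (edgeR adjusted p = 0.0299), and with the offsets its sign turned (0.15, edgeR adjusted p = 0.32). Thrb had 0.458, 0.576, 0.386 and 0.375 RPKM and a log2 fold change of -0.56 (edgeR adjusted p = 0.195), called lower only with the offsets (-1.10, edgeR adjusted p = 0.036). Of 5 tested genes of thyroid hormone transport, deiodination and response, 1 rose and 3 fell (4 of 5 called, against 42.3% of all genes). Klf9, shared with the glucocorticoid list, was the riser. Crym, a thyroid hormone binding protein, fell from 38.5 and 46.1 CPM to 14.6 and 16.2 CPM (log2 fold change -1.57, edgeR adjusted p = 0.000295), and Hr, a corepressor and a target of the receptor, from 3.49 and 2.49 to 1.21 and 1.18 CPM. Thrsp, named after its values were seen, also fell (log2 fold change -2.98, edgeR adjusted p = 0.0293), but from 2.78 and 0.522 to 0.230 and 0.214 CPM, with male B high. That call was lost without male B, male A or female A in turn, with limma-voom, with sex as a term and with the offsets. The Hr call was lost without male B, male A or female A in turn and with sex as a term.

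None of the retinoid receptors passed the test. Rxrg stood at 5.69, 6.504, 6.46 and 6.53 RPKM with a log2 fold change of -0.023 (SE 0.17, edgeR adjusted p = 0.929), and its sign turned with no scaling beyond the total (0.092) and with the offsets (0.47). Rxrb stood at 1.60, 1.61, 1.46 and 1.72 RPKM. Rxra, at 0.477, 0.809, 1.01 and 1.23 RPKM, had a log2 fold change of 0.68 (edgeR adjusted p = 0.123), and it was called higher with the offsets (0.94, edgeR adjusted p = 0.0492) and without male C (1.08, edgeR adjusted p = 0.0244). Rxrg supplied 68.9% to 73.3% of RXR. Among the retinoic acid receptors, Rarb stood at 1.27, 0.649, 1.82 and 1.52 RPKM, Rarg at 1.24, 1.95, 1.34 and 1.36 RPKM and Rara at 0.303, 0.432, 0.751 and 0.441 RPKM. Male C was low in Rarb, which supplied 21.4% of RAR there and 45.1% to 46.5% in the other libraries. Without male B, Rarb was called higher (log2 fold change 1.23, edgeR adjusted p = 0.0208). Of 9 tested genes of retinoic acid synthesis, binding and breakdown, 1 rose and 1 fell (22.2% called, against 42.3% of all genes): Rdh10, a retinol dehydrogenase, from 1.59 and 1.12 to 3.34 and 5.70 CPM, and Crabp2, a retinoic acid carrier, from 13.4 and 8.19 to 5.92 and 7.27 CPM. The Crabp2 call was lost in 7 of 13 alternatives, and that of Rdh10 without female A and with sex as a term. Vdr, the vitamin D receptor, had 10, 10, 2 and 5 counts.

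Oestrogen receptors were lower in the P2-mouse pair at low levels. Esr1 stood at 0.426, 0.603, 0.345 and 0.224 RPKM without overlap and fell with a log2 fold change of -0.98 (SE 0.32, edgeR adjusted p = 0.039). That call ended without male C, male A or female A in turn, with no scaling beyond the total (-0.87) and with sex as a term (-0.68, edgeR adjusted p = 0.251). Esr2 had 18, 18, 0 and 6 counts, and its log2 fold change of -2.67 (SE 0.89, edgeR adjusted p = 0.0442) was lost without male B, male C or male A in turn, with no scaling beyond the total, with DESeq2 and with the offsets (edgeR adjusted p = 0.07). With sex as a term, where it rests on the 0 counts of male A, the log2 fold change was -7.21, and without female A it was -7.07. Pgr, the progesterone receptor gene, had 2, 22, 15 and 16 counts and did not pass. Esrrg, an oestrogen-related orphan receptor, had 21, 34, 4 and 18 counts (log2 fold change -1.43, edgeR adjusted p = 0.0985), and was called lower with the offsets (-2.0, edgeR adjusted p = 0.0456). Esrra stood at 0.313, 0.221, 0.227 and 0.154 RPKM, with a log2 fold change of -0.62 (edgeR adjusted p = 0.422). Esrrb had 0, 0, 0 and 3 counts.

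Lipid-sensing receptors were led by Nr1h2, at 6.68, 9.71, 5.74 and 5.13 RPKM. The pairs did not overlap, and it fell with a log2 fold change of -0.71 (SE 0.20, edgeR adjusted p = 0.0255). The call was lost without male A (-0.79), without female A (-0.61), with sex as a term (-0.62, edgeR adjusted p = 0.189) and with the offsets (-0.20, edgeR adjusted p = 0.45). Nr1h3, liver X receptor alpha, had 19, 12, 2 and 1 counts and fell with a log2 fold change of -3.29 (SE 0.83, edgeR adjusted p = 0.0153). Its call was lost without male B, male A or female A in turn, with DESeq2 and with sex as a term (-2.56, edgeR adjusted p = 0.149). Nr1h2 supplied 95.3% to 99.7% of LXR. Of 10 tested LXR and sterol response genes, 2 rose and 3 fell (5 of 10 called, against 42.3% of all genes). Abca1, a cholesterol exporter, rose from 12.7 and 9.20 to 33.01 and 33.03 CPM (log2 fold change 1.48, edgeR adjusted p = 0.000757), and Mylip, a degrader of the LDL receptor, from 1.77 and 1.57 to 5.75 and 5.88 CPM. Abcg1, another exporter, fell from 149.4 and 135.3 to 74.0 and 90.5 CPM, as did Lpcat3 and Fasn with log2 fold changes of -0.59 and -0.37, calls that were each lost without male A, without female A and with sex as a term. Lpcat3 was also lost with the offsets and Fasn with no scaling beyond the total.

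PPARs are fatty acid sensors. Pparg had 60, 11, 48 and 75 counts, or 1.33, 0.223, 1.39 and 1.35 RPKM, with male C low among the 4. It did not pass (log2 fold change 0.71, edgeR adjusted p = 0.439), while without male B the log2 fold change was 2.48 (edgeR adjusted p = 0.00481) and without male C it was -0.12. Ppard had 19, 8, 8 and 15 counts and did not pass. Ppara had 3, 4, 8 and 9 counts. Of 11 tested PPAR response genes, 2 rose and 2 fell (36.4% called, against 42.3% of all genes). Acadl, an enzyme of fat oxidation, rose and stood at 76.2, 75.1, 113.3 and 119.2 CPM, a call lost with sex as a term. Plin2, the lipid droplet coat gene, fell from 104.3 and 95.7 to 59.6 and 58.5 CPM.

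Nr6a1, an orphan receptor of the germ line and early embryo, stood at 1.11, 1.06, 1.94 and 1.82 RPKM without overlap and rose with a log2 fold change of 0.68 (SE 0.19, edgeR adjusted p = 0.0215). It was not called without male A (0.63), without female A (0.74), with sex as a term (0.74, edgeR adjusted p = 0.0932) or with the offsets (0.41, edgeR adjusted p = 0.126). The remaining members had few counts. Nr0b2, an atypical repressor that lacks a DNA-binding domain, had 9, 5, 0 and 0 counts. With a floor of 3 counts over the P2-mouse pair in place of none, it was 4.46-fold lower there. Nr2e1, an orphan receptor of neural progenitors, had 0, 0, 3 and 4 counts. With the same floor over the embryo pair, it was 2.44-fold higher in the P2-mouse pair. These folds of Nr0b2 and Nr2e1 carry no error of the observed counts, and neither gene was tested. Hnf4a, a liver and gut factor, had 27, 0, 3 and 0 counts, nearly all in male B. Nr1i3, a xenobiotic sensor, had 15, 23, 7 and 17 counts and did not pass (log2 fold change -0.74, edgeR adjusted p = 0.319). Tomm40l covers 51.4% of its exon bases on the other strand and was lower in the P2-mouse pair (-1.28, edgeR adjusted p = 0.001), the same direction. Nr5a2 had 1, 9, 3 and 12 counts, Nr1h4 had 0, 1, 2 and 4, Nr5a1 had 0, 4, 1 and 0, and Hnf4g had 1, 2, 0 and 0.

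Coregulators, the corepressor and coactivator proteins recruited by the receptors, had 20 tested genes, of which 8 rose and 1 fell. The share called was 45.0%, near the 42.3% over all genes, with a median log2 fold change of 0.26 against 0.018 over all tested genes. Lcor, a ligand-dependent corepressor, rose from 15.8 and 15.4 to 61.0 and 58.9 CPM (log2 fold change 1.83, edgeR adjusted p = 0.000141) and Ncoa2, a p160 coactivator, from 40.1 and 42.3 to 88.3 and 102.1 CPM (1.09, edgeR adjusted p = 0.000418). Ncoa6 rose with a log2 fold change of 0.87, a call lost without male A. Tbl1xr1 rose with 1.0, which was 0.23 with the offsets (edgeR adjusted p = 0.311) and not called with sex as a term. Ncoa3 fell from 47.0 and 44.8 to 33.1 and 36.6 CPM (-0.51, edgeR adjusted p = 0.0138), a call lost without male A, without female A and with sex as a term. With the offsets 6 rose and 2 fell and the median was 0.038, against 0.041 over all genes.

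**Figure D4:**
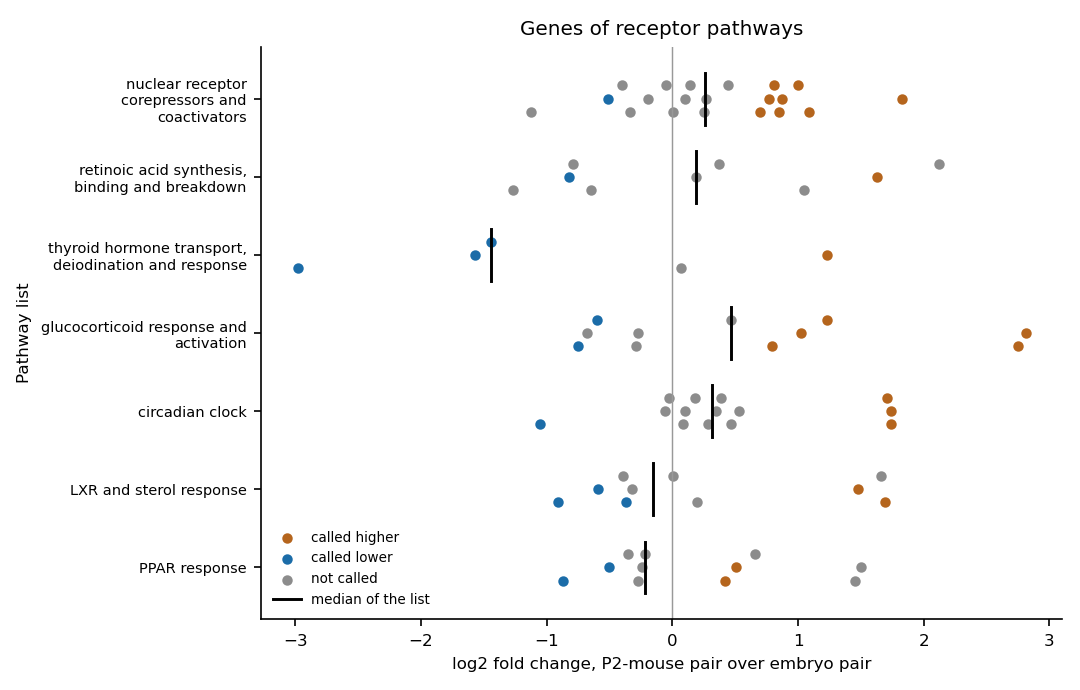
Log2 fold change of the tested genes in each pathway list, one point a gene, coloured by call, with the list's median as a black bar. The coregulator median lies at 0.26 and that of the thyroid hormone list, over 5 genes, at -1.44.

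Base composition moved with the calls, and transcript length with the fold change. Members called higher had a median GC content of 45.7%, those called lower 56.8% and those not called 52.2%, in the longest transcript. Over all tested genes the medians were 44.2% for those called higher and 53.0% for those called lower. Spearman's rho of log2 fold change with GC was -0.343 over the 30 members and -0.444 over 15474 genes. With transcript length it was 0.456 over the members and 0.275 over all these genes. These are correlations across genes that share the same 4 libraries, given as a description. With offsets for GC content and transcript length, 32.0% of genes were called, 5 members passed as higher and 4 as lower. Of the 13 calls, 6 remained: Nr1d2, Nr2f1, Nr2c2, Nr2f2, Nr1h3 and Esr1. The offsets take GC content and length together, so their parts in the lost calls cannot be told apart.

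**Figure D5:**
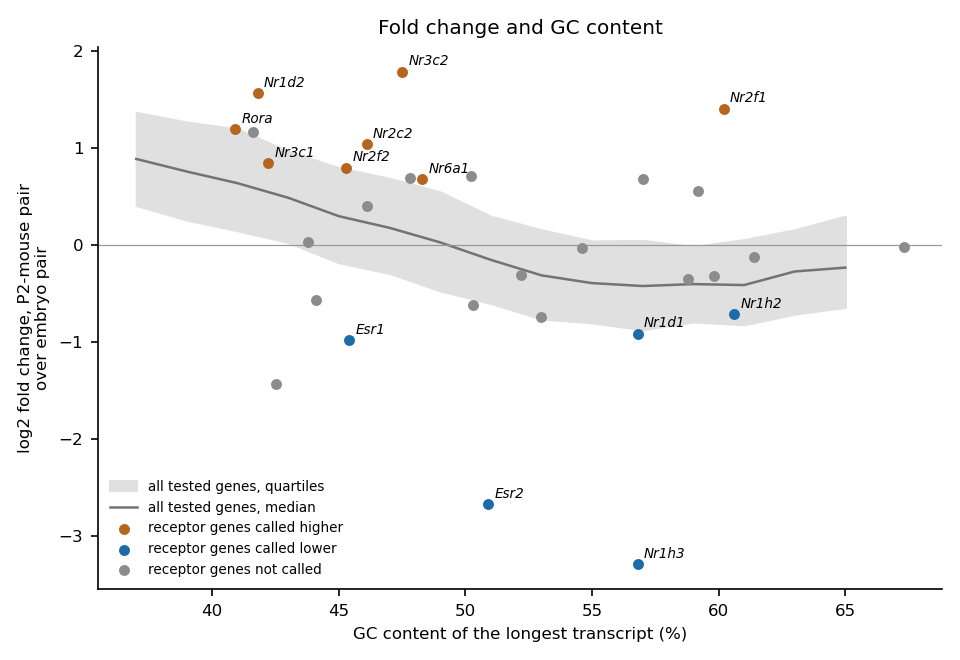
GC content of each member's longest transcript (percent) against its log2 fold change between the pairs, as points coloured by call, over the median (line) and quartiles (band) of all tested genes by GC content. Members called higher had a median of 45.7% GC and those called lower 56.8%, with overlap between 45.4% and 60.2%.

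Female A was compared with male A in a fit with the pool description as a term, where male B and male C give the spread. None of the 30 tested members passed by edgeR, limma-voom or DESeq2, and none had an unadjusted p under 0.05, against 1.45% of all genes. Over all genes 3 passed (0.0193%), the Y-linked Ddx3y, Eif2s3y and Uty. Esr2 had the largest log2 fold change, 5.28 (SE 2.1), resting on 6 counts in female A and 0 in male A. Esr1 stood at -0.64 (SE 0.44), and the median over the members was -0.0035. With 1 female and 1 residual degree of freedom, differences of modest size were not detectable at this depth.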

How the data were processed

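Per the submitters' processing notes, the authors assigned reads to GRCm38.p2 genes with featureCounts 1.4.5 (Subread is also named, with no role), which gives the deposited counts. The deposited CPM scales each count to the total over genes in its library, and the deposited RPKM further divides by exon length in kilobases. Both were recomputed from the counts. Per the labels' protocols, 10 ng of RNA was amplified with a SMARTer kit and 12 PCR cycles, so counts are not independent molecules and floors of 3 counts cover counting error only. Not given in the sources used here: aligner, annotation release, strand setting and treatment of multiple matches. Exon positions and lengths, and the exon overlaps between genes, came from the exon annotation deposited with the counts. Symbols (40254 of 41388 IDs) and transcripts, with their GC content and length, came from GENCODE M21, and promoters from RefSeq.

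Groups followed the pool labels. The counts were fitted over all 4 libraries with edgeR 4.0.16 (quasi-likelihood F test, R 4.3.3), with TMM factors and a filter by filterByExpr at a count of 10 and a total of 15. Calls used Benjamini-Hochberg adjusted p under 0.05 over all tested genes. The SE is the log2 fold change over the square root of F. The sex coefficient came from a fit with the pool description. Alternatives were other scalings, other filters, DESeq2 1.42.0, limma-voom (limma 3.58.1), sex as a term, offsets for GC content and transcript length (mgcv 1.9.3) and each library left out. The fit between the pairs was also run on simulated counts as a check of the code, and no result here rests on it. All members were named, and of each pathway list at most 4 called genes per direction with the largest change and a mean of at least 1 CPM. Some genes that this rule names are not reported here. Members and lists were chosen with earlier results of these data known.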

Additional observations from a re-analysis of the deposited data

How the results depend on the processing

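Over all genes, 3472 were called higher and 3112 lower, against 2064 and 1615 with sex as a term. Leaving out 1 library gave 1935 to 3630 higher and 1681 to 3311 lower. Of the members, 8 were higher and 5 lower. With sex as a term 3 were higher and 1 lower, and 5 were higher with the GC and length offsets. Lower calls numbered 3 with no scaling beyond the total, with a mean of at least 1 CPM and with DESeq2, and 8 with no filter. Leaving out 1 library gave 5 to 9 higher and 0 to 4 lower members. No scaling moved the median log2 fold change of all genes from 0.018 to 0.13. In the sex comparison 3 genes were called, against 5 with RLE or upper-quartile scaling, 9 with no filter, and 0 with limma-voom or without the pool term. The cause was not tested.

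Members that did not pass and turned sign were Nr2c1 (-0.041 with upper-quartile scaling, -0.27 with the offsets), Nr2f6 (0.1 with no scaling, 0.026 with limma-voom, 0.17 with the offsets), Pgr (-0.069), Rarg (0.11), Rxrb (0.28) and Thra (0.15) with the offsets, and Rxrg (0.092 with no scaling, 0.47 with the offsets). With 1 library left out, log2 fold changes ran from -0.35 to 0.46 for Nr2c1, -0.34 to 0.29 for Nr2f6, -0.45 to 2.77 for Pgr, -0.13 to 0.035 for Rxrg, -0.89 to 0.51 for Ppard and -0.12 to 2.48 for Pparg. The count of members with at least 1 CPM in every library was 19, against 10 at 5 CPM and 11 at 1 RPKM.

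No paired analysis was possible because the replicate numbers were given in accession order and tie no library of one pair to a library of the other. For the sex comparison, leaving out male B or male C leaves no residual degrees of freedom, and leaving out male A or female A leaves no comparison within the pair, so those fits were not run. The filter on low counts kept 13 of the 43 members out of the tests.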
